A study of Homo sapiens with 16 samples.

Results

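The EGR genes EGR1, EGR2 and EGR3 encode early growth response transcription factors, which bind GC-rich DNA through zinc fingers. The members were given by name, and each was read over a fixed hg19 span plus 2 kb before its start and 5 kb after its end. The 3 extended spans held 8 of 87911 control peaks of RNA polymerase II (Pol II), 9 of 85990 peaks after 30 min of merbarone, 8 of 81816 after 1 h, and 1 of 1840 peaks of DNA topoisomerase II alpha (TOP2A).

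EGR genes are immediate-early genes: in many resting cells they are transcribed within minutes of a growth or stress signal, without new protein synthesis. Serum response factor (SRF) binds CArG boxes in their promoters and acts together with ETS-family partners. The corepressors NAB1 and NAB2 bind the EGR proteins and limit their action. EGR1 is the member that most cell types induce, EGR2 is known for hindbrain patterning and Schwann cell myelination, and EGR3 for muscle spindle development. On such genes Pol II often halts just after the start and waits for release into the gene. TOP2A cuts both strands of a duplex, lets another duplex through and reseals it, which relaxes the supercoils that a moving polymerase leaves, and merbarone stops this cycle ahead of the cut.

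All libraries came from wild-type hTERT RPE-1 cells, a single telomerase-immortalised line of human retinal pigment epithelium, held for 48 h in 0.1% serum. The control list stands for 3 libraries of cells given the vehicle DMSO for 30 min and 3 of untreated cells, and the drug lists for 3 libraries after 30 min and 2 after 1 h (60 min) of 200 uM merbarone. TOP2A was mapped in 2 untreated libraries, and 3 IgG libraries were not analysed here. The Pol II antibody binds the N-terminal part of RPB1, the largest subunit. The labelled cell type was not checked against marker genes, since only the EGR spans were placed on hg19.

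Each value below is read from 1 peak list per condition, so no value has a spread between replicates and no test between conditions could be made. Cover is the share of a window's base pairs that lie under called peaks, which says where Pol II was called and not how much of it there was. Read depth was unknown. The control list as a whole spanned 42.8 Mb, that of 30 min 47.7 Mb and that of 1 h 58.3 Mb, so each gene is set beside all 53375 tiles of 4 kb that held a Pol II peak in any list. Over these tiles the median change of cover was 0.32 percentage points at 30 min and 4.15 points at 1 h. Both drug lists were compared with the same control list.

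The promoters of EGR1 and EGR2 are shown first, because in both drug lists each gene had a Pol II peak across its start. The sequences are the 250 bases before the RefSeq start on GRCh38.p14, and they were not lined up with the hg19 peaks. Capitals mark CArG boxes, the SRF sites. EGR1 lies on chr5:138465229-138465478, plus strand. EGR2 lies on chr10:62816367-62816616, minus strand, and of the 3 EGR2 starts in the table it is the one whose distance to the gene's end equals the span read here.
EGR1: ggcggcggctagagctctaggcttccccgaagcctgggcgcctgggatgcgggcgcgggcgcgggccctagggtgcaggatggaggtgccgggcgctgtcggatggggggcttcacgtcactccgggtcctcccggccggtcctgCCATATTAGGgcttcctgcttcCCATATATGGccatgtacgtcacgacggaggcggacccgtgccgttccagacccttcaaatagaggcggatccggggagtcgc
EGR2: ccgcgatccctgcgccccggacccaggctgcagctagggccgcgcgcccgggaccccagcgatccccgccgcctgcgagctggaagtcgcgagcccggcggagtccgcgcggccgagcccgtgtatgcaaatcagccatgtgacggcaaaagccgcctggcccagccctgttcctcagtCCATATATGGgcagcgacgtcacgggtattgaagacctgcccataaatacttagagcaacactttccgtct

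The EGR1 promoter held 2 CArG boxes, at 105 to 96 and 83 to 74 bases before the start. The EGR2 promoter held 1, at 71 to 62 bases before the start. Its letters were those of the nearer EGR1 box. At least 1 CArG box was found in 407 of 35116 RefSeq promoters (1.16%) and at least 2 in 11 (0.0313%). Each of both promoters also held 2 copies of TGACG, the core of the cyclic AMP response element, read on both strands, and 4.76% of promoters held at least 2, counting the full element as 2. Neither promoter held the full element TGACGTCA, the EGR site GCGTGGGCG or a TATAAA box, which 1.65%, 0.72% and 10.7% of promoters held. No searched motif overlapped another in these promoters. The EGR3 promoter is not shown.

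EGR1 (chromosome 5 from 137801181 to 137805004, plus strand, 3824 bp) had Pol II peaks at its start in every list, but in its body only after merbarone. In control, Pol II peaks covered 79.05% of the 2 kb around the start. They covered 0% of the body, which runs from 1 kb after the start to the gene's end. At 30 min and at 1 h both windows were covered over 100%. The control list held 6 separate peaks in the extended span, and each drug list held 1 unbroken peak.

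The control peaks fell into 2 groups. At the start, peaks of 1483 bp (137799400 to 137800882) and 723 bp (137800888 to 137801610) stood 5 bp apart and reached from 1781 bp before the start to 429 bp after it. Another of 156 bp ended 719 bp after the start. Past the gene's end lay peaks of 223, 136 and 156 bp, from 570 to 1222 bp beyond it, in the stretch where Pol II is generally known to slow and leave the template. Between the groups, from 137801901 to 137805573, no control peak was called over 3673 bp.

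After merbarone that gap was closed. The 30 min peak ran from 137799469 to 137807060, and the 1 h peak from 137799296 to 137807063. Their widths were 7592 and 7768 bp. They ended 2056 and 2059 bp past the gene's end and began 1712 and 1885 bp before the start. In the 5 kb after the end, control cover was 10.3%, 30 min cover 41.1% and 1 h cover 41.2%. From 2 kb to 1 kb before the start the order differed, with 78.1% covered in control, 71.2% after 30 min and 88.5% after 1 h. Most of the cover added at 30 min thus lay in the gene and past its end.

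**Figure D1:**
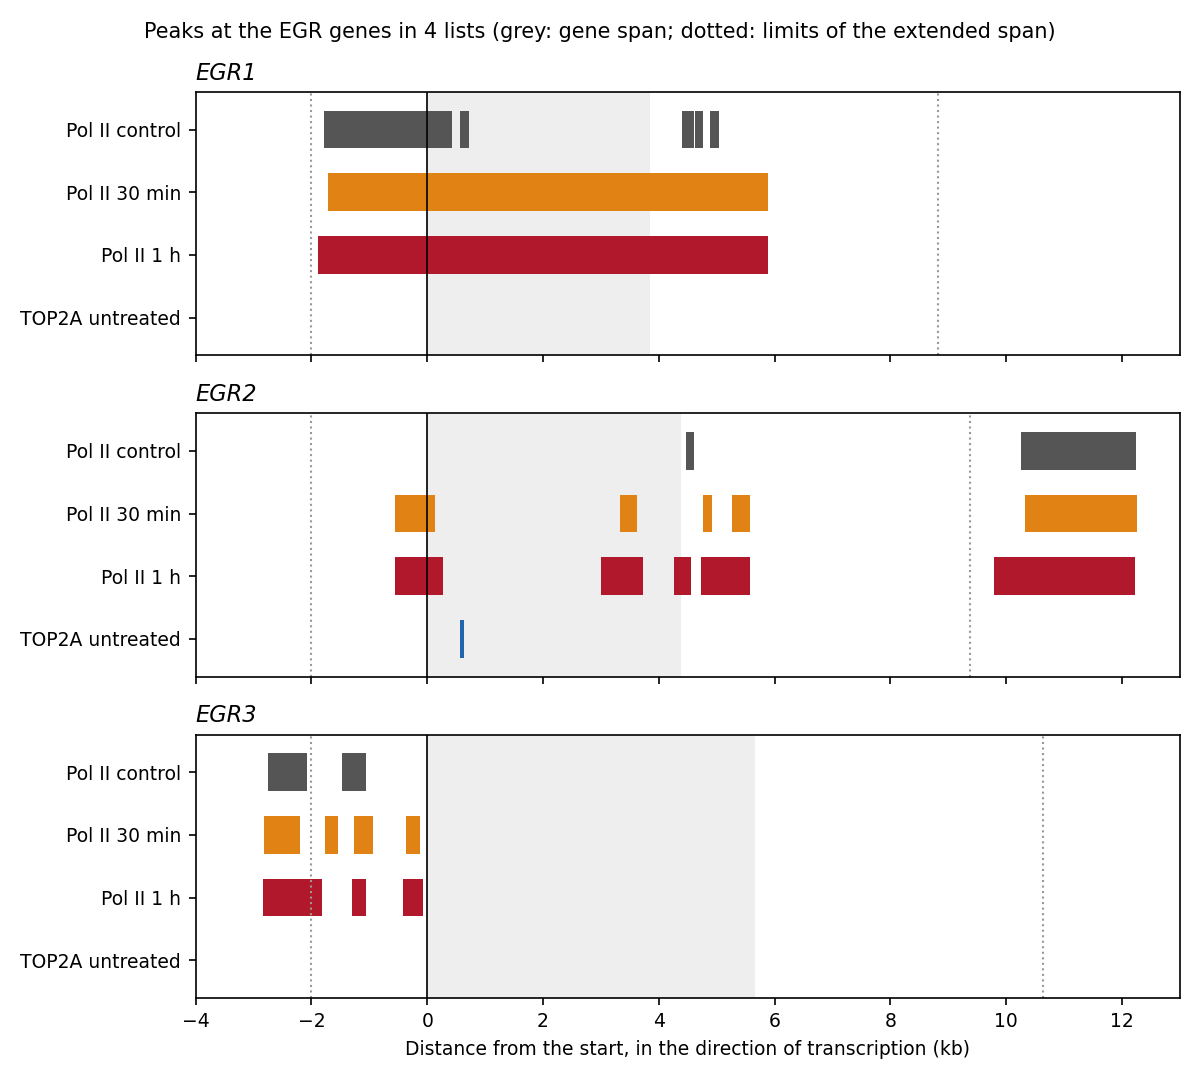
Pol II and TOP2A peaks (bars) at EGR1, EGR2 and EGR3 in the 4 lists, by distance from the start in kb in the direction of transcription. Grey marks the gene span and dotted lines the limits of the extended span: EGR1 has 1 unbroken peak per drug list, EGR2 has separate peaks, and EGR3 has none within the gene span.

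No 4 kb tile gained as much cover at 30 min as the EGR1 body did, which went from 0% to 100%, and 1 tile did at 1 h. A gain of at least 50 points was seen in 0.152% of tiles at 30 min and 1.88% at 1 h, and in the body of 1 of the 3 EGR genes at each time. The EGR1 body (2824 bp) is shorter than a tile, and shorter windows are more easily filled. The control gap around it (3673 bp) is shorter than 4 kb too, so no 4 kb tile at EGR1 could itself gain 100 points. With 2 kb tiles the shares that gained at least 50 points were 0.756% and 4.04%. The EGR1 peak was also wide for its list. At 30 min 134 peaks (0.156%) were at least as wide, and at 1 h 354 (0.433%). In control its widest peak was matched or passed by 5040 peaks (5.73%).

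The closing of the EGR1 gap was set beside all gaps of like size, a comparison chosen after its value was seen. Among 2952 gaps of 3 to 5 kb between neighbouring control peaks, 1 was filled end to end at 30 min (0.0339%), and it was that of EGR1. The median gap was filled over 4.78%, and the next after EGR1 reached 76.8%. At 1 h 3 gaps were filled (0.102%), EGR1 among them, and the others were chr20:48602533-48605887 and chr7:2675494-2679178. Over 9395 gaps of 2 to 10 kb the EGR1 gap was again the 1 filled at 30 min, and the next reached 90.1%. At 1 h 16 of these were filled.

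**Figure D2:**
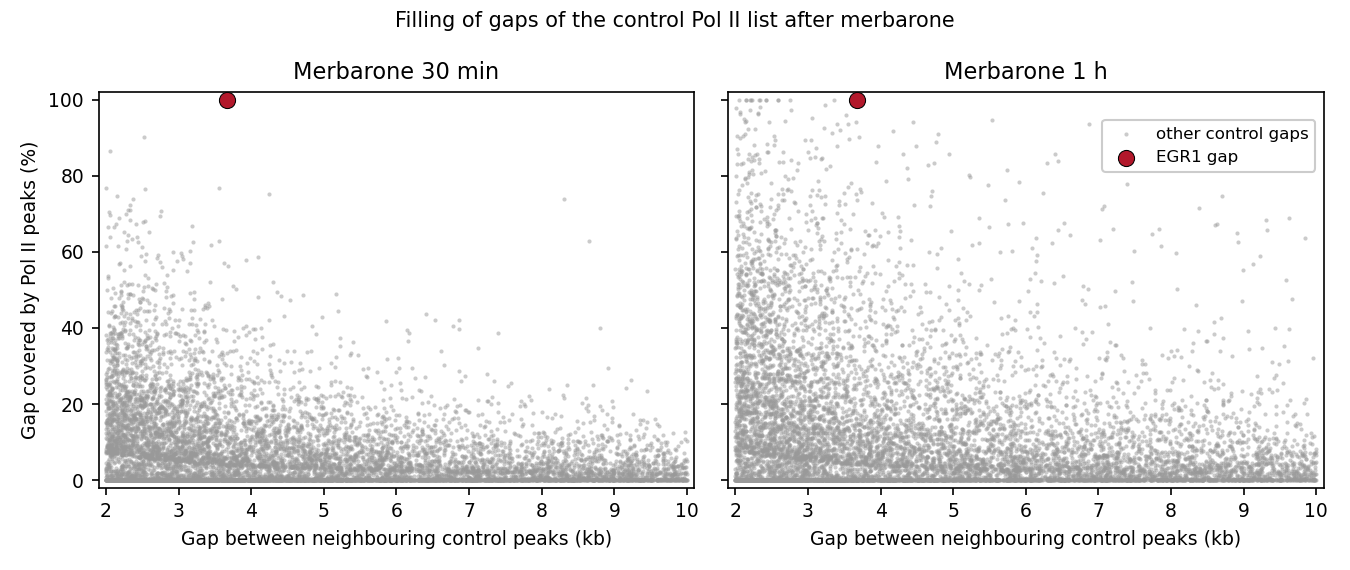
Share of each control gap of 2 to 10 kb (n = 9395) that Pol II peaks covered after 30 min (left) and 1 h (right) of merbarone, against the length of the gap in kb. The large point is the EGR1 gap of 3673 bp, alone at 100% at 30 min and 1 of 16 at 100% at 1 h.

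EGR2 (chromosome 10 from 64571756 to 64576126, minus strand, 4371 bp) had no Pol II peak at its start or in its body in control, and had them in both drug lists. Cover of the 2 kb around the start was 0% before merbarone, 34.4% after 30 min and 42.0% after 1 h. Body cover was 0%, 8.69% and 24.9%. Within 0.5 kb of the start the gains were 62.6 and 77.9 points. The body gain at 30 min was 0 with only peaks of at least 300 bp, and that at 1 h was 40.6 points with peaks within 1 kb joined. The 5 kb after the end was covered over 2.80%, 9.32% and 20.4%. Each of these windows was thus covered most at 1 h, whereas the EGR1 start and body were already full at 30 min.

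The peak at the EGR2 start had the same outer edge at both times, base 64576688, which is 562 bp before the start. Its inner edge lay 125 bp after the start at 30 min and 278 bp after it at 1 h, for widths of 688 and 841 bp. A second peak lay late in the gene. It spanned 293 bp at 30 min (64572508 to 64572800) and 732 bp at 1 h (64572392 to 64573123), so the 1 h peak held the earlier one. Between the start peak and this one, no Pol II peak was called over 3200 bp at 30 min and 2724 bp at 1 h. EGR2 thus had an uncovered middle in the lists where EGR1 had none uncovered. At 30 min the EGR2 end was uncovered too, in a gap of 1148 bp (64571360 to 64572507). At 1 h a peak of 286 bp crossed the end, with 529 bp uncovered between it and the late peak.

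Past the end of EGR2 the drug lists each held cover out to about the same place, 1206 bp beyond the end at 30 min and 1201 bp at 1 h. At 30 min this was 2 peaks of 313 and 153 bp. At 1 h it was a peak of 839 bp, with another of 286 bp across the gene's end. The control list had 1 peak in the whole extended span. It was 140 bp wide, lay 105 to 244 bp past the end, and 91.6% of control peaks were at least as wide. No 30 min peak overlapped it, and 1 h peaks covered 75 bp of it. The narrowest peak of the 30 min list was 150 bp and of the 1 h list 159 bp, so neither held any peak this narrow. Of the 1447 bp under 30 min peaks at EGR2, 1442 bp (99.7%) were also covered at 1 h.

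RefSeq lists 2 more EGR2 starts, 2409 and 2801 bp farther upstream on GRCh38. No Pol II peak was called there in any list: the 25 kb before the extended span and the stretch from 2 kb to 1 kb before the start were at 0% throughout. On the other side, a peak beyond the extended span had a control width of 1988 bp, a 30 min width of 1938 bp and a 1 h width of 2441 bp. In the RefSeq order the next protein-coding gene on that side is ADO, a thiol dioxygenase gene, but no gene was assigned to this peak. It was present in control and slightly narrower at 30 min, when EGR2 itself had its first peak at the start.

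EGR2 was the member with TOP2A in its extended span. In untreated cells a TOP2A peak of 73 bp lay on chromosome 10 from 64575492 to 64575564, 562 to 634 bp after the start. It was as narrow as any in that list, and 517 of 1840 TOP2A peaks shared this width. No Pol II peak overlapped it. The nearest Pol II peak stood 3840 bp away in control, 436 bp after 30 min and 283 bp after 1 h, so the start peaks ended short of it. In the whole list 294 TOP2A peaks (16.0%) lay over 1 kb from any control Pol II peak. Of these, 6 (2.04%), the EGR2 peak among them, were within 1 kb of a Pol II peak at both drug times. This count was not planned, and its limits follow the EGR2 pattern, so the share does not measure how unusual EGR2 is. At EGR1 the nearest TOP2A peak lay 15.2 kb before the start and at EGR3 94.4 kb after it. TOP2A was not mapped after merbarone.

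EGR3 (chromosome 8 from 22545174 to 22550815, minus strand, 5642 bp) had no Pol II peak within this span or in the 5 kb after it in any list. What differed lay just before its start. Cover of the 2 kb around the start was 0% in control, 15.1% after 30 min and 17.2% after 1 h. With only peaks of at least 300 bp the 30 min value was 0%. With peaks within 1 kb joined the gains were 43.7 and 46.4 points, and within 0.5 kb of the start they were 23.7 and 34.5. The peak nearest the start spanned 237 bp at 30 min, from 363 to 127 bp before it. At 1 h it spanned 345 bp, from 417 to 73 bp before it. Neither crossed the start of the span read here, unlike the start peaks of EGR1 and EGR2. The RefSeq EGR3 gene is 180 bp longer than this span, and at which end was not checked. A start 180 bp farther upstream would lie within both peaks, so this contrast depends on the start used.

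Farther upstream EGR3 had Pol II in every list. From 2 kb to 1 kb before the start, cover was 41.5% in control, 47.8% after 30 min and 43.1% after 1 h. Control had a peak of 415 bp there (22551879 to 22552293) and another of 670 bp just beyond the extended span. At 30 min peaks of 163 and 160 bp, 1 bp apart, covered 47.0% of the length of the 415 bp control peak. Another 30 min peak, of 220 bp, lay outside it. The peak beyond the span was 618 bp wide at 30 min. At 1 h a peak of 1025 bp reached into the span, from 2842 to 1818 bp before the start, beside one of 248 bp. Within the extended span the positions matched less closely between the times than at EGR2, since 437 of 780 bp (56.0%) under 30 min peaks were also covered at 1 h. This count leaves out the 618 bp peak beyond the span, which lay wholly within the 1025 bp peak of 1 h.

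**Figure D3:**
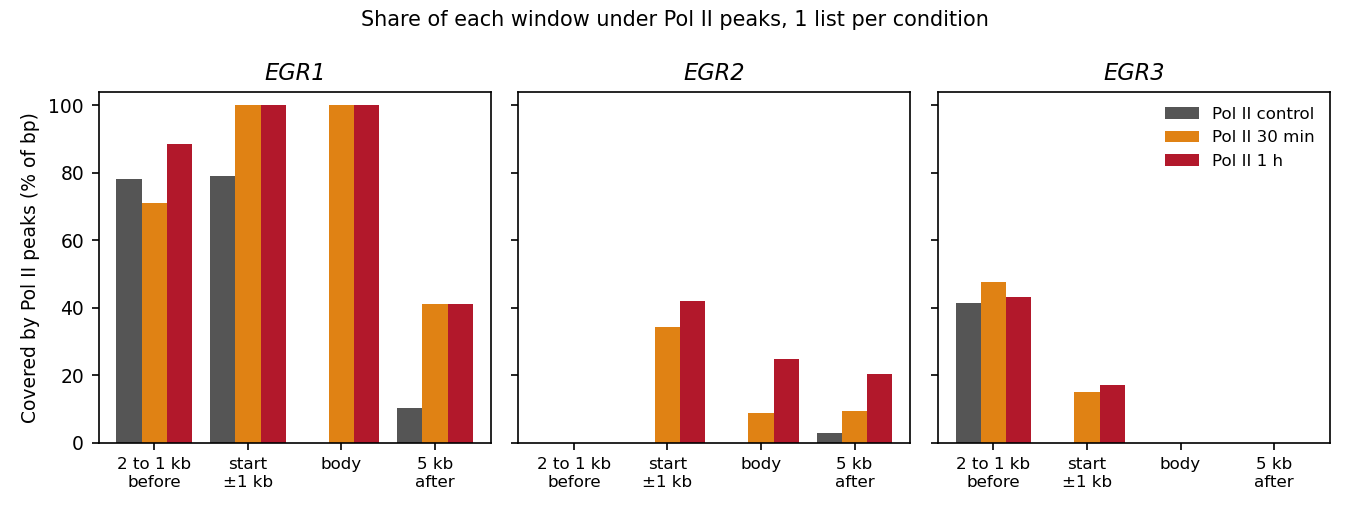
Share of base pairs under Pol II peaks (bars, in %) in 4 windows of each EGR gene for the control, 30 min and 1 h lists, with 1 list per condition and so no error bars. The EGR1 body goes from 0% to 100%, the EGR2 start from 0% to 34.4% and 42.0%, and the EGR3 body stays at 0%.

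Across the family, the window around the start was covered more by at least 10 points in 3 of 3 genes at both times, against 14.3% of 4 kb tiles at 30 min and 28.3% at 1 h. The count was 2 of 3 with a window of 0.5 kb either side, where EGR1 gained 7.5 points at each time, and 2 of 3 at 30 min with only peaks of at least 300 bp, without EGR3. With tiles of 2 kb, the width of the start window, the shares were 21.7% and 39.1%. For the body the count was 1 of 3 at 30 min (EGR1) and 2 of 3 at 1 h (EGR1 and EGR2). For the 5 kb after the end it was likewise EGR1 at 30 min and EGR1 and EGR2 at 1 h. EGR2 also passed at 30 min with a 2 kb window after the end (16.3 points, against 6.52) and with peaks within 1 kb joined (13.4 points). That 2 kb window gave gains of 74.2 points for EGR1 at each time, against 30.8 at 30 min and 30.9 at 1 h over 5 kb, and 43.9 for EGR2 at 1 h, against 17.6. The gains at the start were 20.95 points at each time for EGR1, 34.4 and 42.0 for EGR2, and 15.1 and 17.2 for EGR3. None of the 9 windows (start, body and 5 kb after the end of each gene) was covered less by at least 10 points, against 5.01% of tiles at 30 min and 3.72% at 1 h. Only the EGR1 start (79.05%) and the 5 kb after EGR1 (10.3%) had control cover of at least 10%. The other windows could not fall that far, so this count is not a result about the family. EGR1 could gain little at its start, since it was mostly covered in control.

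Start windows were also placed among 80269 tiles of their own width, 2 kb. A gain as large as at the EGR2 start was seen in 3.04% of these tiles at 30 min and 6.40% at 1 h. For the EGR1 start these shares were 8.88% and 20.4%, and for the EGR3 start 14.3% and 25.1%. With 4 kb tiles all 3 genes ranked higher, at 1.01% and 3.19% for EGR2, 4.47% and 13.1% for EGR1, and 8.34% and 16.8% for EGR3. Gains as large as in the EGR2 body were seen in 16.6% of 4 kb tiles at 30 min and 10.0% at 1 h. Gains at the EGR3 start, in the EGR2 body and, at 1 h, at the EGR1 start were thus within the common range of tiles.

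**Figure D4:**
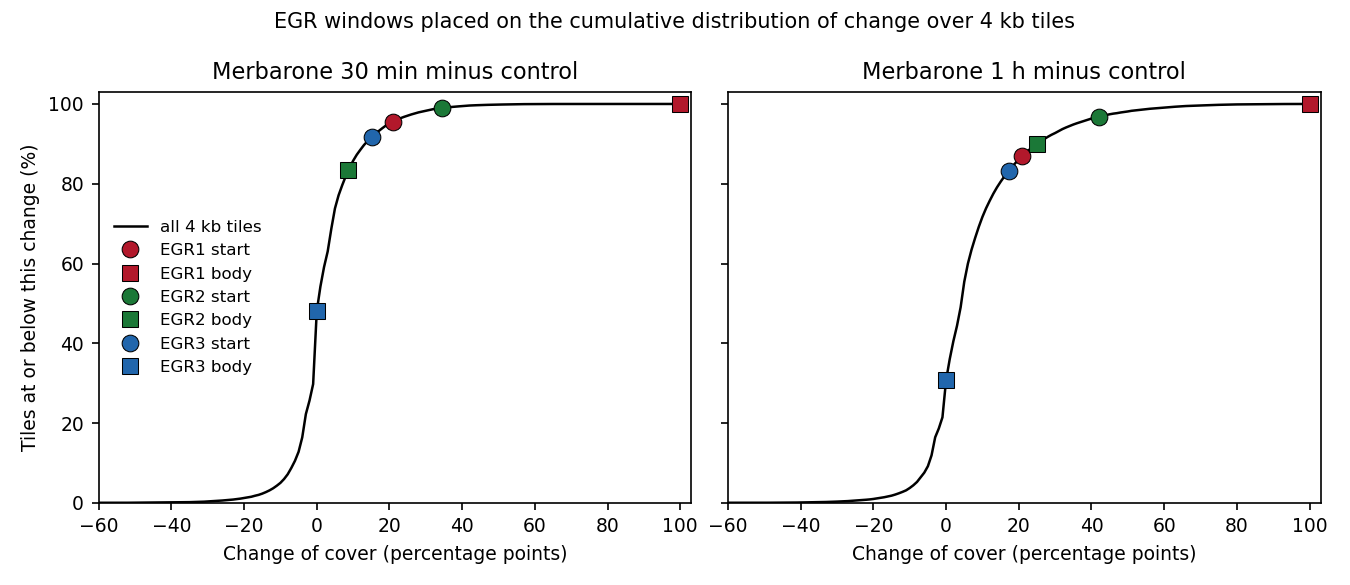
Cumulative share of 4 kb tiles (line, in %, n = 53375) by change of Pol II cover in percentage points at 30 min (left) and 1 h (right), with the start and body of each EGR gene placed at its own change. The EGR1 body lies at 100 points, the EGR2 start at 34.4 and 42.0, and the EGR3 body at 0. The EGR3 body held no Pol II peak in any list and tiles without a peak were left out, so its place on the line is not a rank.

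The stretches next to the genes were read over 25 kb, longer than the gene windows. The same gain in bp thus makes fewer points there. The 25 kb before the EGR1 extended span had a cover of 4.18% in control, 5.33% after 30 min and 4.39% after 1 h, and the 25 kb after it 0%, 0.6% and 0%. After EGR2 the values were 7.95%, 7.75% and 9.76%. For EGR3 they were 2.68%, 2.47% and 3.37% before the gene and 4.17%, 3.78% and 5.94% after it. After EGR2 the covered bp in control, at 30 min and at 1 h were 1988, 1938 and 2441. Its extended span had 140, 1447 and 2698. After EGR3 the covered bp were 1043, 945 and 1486, and its extended span had 415, 780 and 776. No gain in bp as large as in the EGR1 and EGR2 extended spans was found beside them. The gain after EGR3 at 1 h was larger than that in its extended span.

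The regions most like each gene were sought among 5902 Pol II domains, that is, peaks of the 3 lists joined across gaps of up to 5 kb and at least 5 kb wide. Likeness was the summed difference of cover in the 3 Pol II lists. The EGR1 domain had a cover of 37.0% in control, 97.7% after 30 min and 100% after 1 h. Its edges are those of the 1 h peak, so the 100% follows from how domains were joined. The nearest domain was 40.0 points away, on chromosome 10 from 135232098 to 135237447 (62.3%, 85.7% and 97.4%). The next, on chromosome X from 106955032 to 106960641, was 41.6 points away. The EGR2 domain also takes in the peak beyond the extended span, which makes up 1988 bp of its control cover, against 140 bp within the span. At 16.6%, 26.4% and 40.1% it had a partner 0.711 points away, on chromosome 19 from 36495040 to 36506609. The domain of EGR3 (2770 bp) lies wholly before the gene span read here and is narrower than those searched. It stood at 39.2%, 50.5% and 58.4%, with a partner 1.82 points away on chromosome 17 from 1940984 to 1978946. These partners match the joined domains, not the EGR2 and EGR3 genes themselves.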

How the data were processed

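ChIP-seq libraries of Pol II (RPB1) and TOP2A were made by ChIPmentation, per the labels' protocols. Bowtie 1.2.0, MACS2 and deepTools 2.4.1 with build hg19 were used, per the submitters' processing notes. Which threshold and background library MACS2 was run with, and how libraries were merged, was not stated in the sources used here. Each list, as deposited by the authors, holds peak starts and ends in bp, with no score, and depth was unknown. The authors deposited 1 list for vehicle and untreated Pol II together, so these could not be compared.

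Positions were taken as BED intervals, whose first base is 0, and are printed counted from 1. Gene spans were given with the members on hg19. No hg19 gene table was used here, so EGR4, NAB1, NAB2 and other pathway genes were not analysed here. Windows were the start (1 kb either side), the body (the rest of the span), 5 kb after the end and 2 to 1 kb before the start. Tiles of 4 kb began at the first base of each chromosome. All 3 EGR genes are named, and per gene the 3 nearest domains were computed. Motifs were searched in RefSeq promoters, where EGR1 and EGR2 matched by symbol; the core TGACG was added after seeing the data. The members, windows and lists were chosen with earlier results of these data known. Alternatives joined or left out peaks, or changed windows and tiles. Like limits joined Pol II peaks up to 37 bp apart and then left out those under 159 bp, the limits of the 1 h list. Interval functions were tested on simulated data and against bedtools 2.31.1. Software was numpy 2.4.6, pandas 2.3.3 and matplotlib 3.10.9 under Python 3.11.15.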

Additional observations from a re-analysis of the deposited data

How the results depend on the processing

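No change of cover turned its direction in 78 recomputed values: 58 kept it, 18 were 0 in both, and 2 became 0. Only the windows after the end of EGR1 and EGR2 could have turned. In the others, control cover was 0% or drug cover was 100% under every setting, so the count says little about them. With only peaks of at least 300 bp, the 30 min gains of the EGR2 body and the EGR3 start were 0, since their peaks are narrower, the EGR2 body at 1 h was 21.7 points and the EGR1 start 28.75 points at each time. With like limits the EGR1 start gain was 28.5 points at each time. With peaks within 1 kb joined it was 14.0 points at each time, the EGR2 body 40.6 at 1 h, and the EGR3 start 43.7 and 46.4. With a start window of 0.5 kb either side, which takes the count of starts higher by at least 10 points to 2 of 3, gains were 7.5 points for EGR1 at each time, 62.6 and 77.9 for EGR2, and 23.7 and 34.5 for EGR3. The EGR1 body gain was 100 points under every change to the peak lists, 84.7 over the whole span and 95.3 from 0.5 kb after the start, at each time. From 0.5 kb the EGR2 body gained 7.57 and 21.7 points.

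Tiles higher by at least 10 points were 21.7% (2 kb tiles) and 8.38% (8 kb tiles) at 30 min, and 49.6% of joined domains at 1 h. Tiles higher by at least 50 points at 30 min were 0.244% with like limits, 0.553% with peaks of at least 300 bp, 1.64% with peaks joined, 0.756% and 0.0188% with tiles of 2 and 8 kb, and 0.0847% of domains. At 1 h they were 4.17% with peaks of at least 300 bp, 5.00% with peaks joined, 4.04% and 0.799% with tiles of 2 and 8 kb, and 0.983% of domains. With like limits the EGR1 gap was still the 1 filled at 30 min, and 4 were filled at 1 h; both gap alternatives were chosen after seeing the data. No paired analysis was possible because each condition has 1 list for all its libraries, and for the same reason no replicate could be left out. Peak height and depth are unknown, so more Pol II and more reads cannot be told apart.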
